A study of Mus musculus with 3 samples.

Results

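Mouse Zfp genes with a number of 300 or higher encode mostly C2H2 zinc finger proteins, and 263 protein-coding genes of the GENCODE M21 annotation carried such a symbol, of 21853 protein-coding genes with a coding sequence. The rule uses the symbol alone and no measured value, though it was set with earlier results of these data known. Ago2 HITS-clip, in which ultraviolet light links Argonaute 2 to the RNA it touches before immunoprecipitation and sequencing, was carried out in N2A cells, a mouse neuroblastoma line, under basal conditions. The 3 libraries formed 1 group, with no treatment, genotype or control library to set against it. Per the labels each sample held about 60000000 cells, irradiated at 400 mJ/cm2 and then 2 more times at 200 mJ/cm2, and Ago2 was precipitated with the antibody clone 2D4. Nothing in the labels says that the samples came from separate cultures, and the spread between them may be technical.

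A C2H2 finger is a short protein loop that holds a zinc ion between a pair of cysteines and a pair of histidines and contacts DNA. Many of these genes arose by duplication and stand in clusters, and within a gene the fingers are tandem repeats joined by short linkers, so the same bases recur along the coding sequence. Many also encode a KRAB domain, which recruits the corepressor Trim28 and silences chromatin, often at transposable elements. Argonaute 2 is guided by miRNAs, which pair with mRNAs chiefly through bases 2 to 8, the seed. Most known sites lie in 3′UTRs, while matches to miR-181 repeated in the coding sequence of zinc finger genes are a described exception.

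The members held a median of 10 finger motifs, with up to 33 in a protein. The motif was a cysteine pair and a histidine pair at the spacing of a C2H2 finger. Of the members, 145 had 10 or more fingers, 97 had 2 to 9, 10 had a single one and 11 had none, so the symbol did not stand for a finger protein in every case. A KRAB A box pattern was found in 146. Chromosome 7 held 61 members, chromosome 17 held 28, chromosome 4 held 25, chromosome 13 held 22, chromosome 2 held 21 and chromosome 8 held 20. For 18 members the transcript used here, the one with the longest coding sequence, had no annotated 3′UTR.

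The miRNAs whose seed matches were set against the peaks are shown first, because that comparison turns on their seeds. Those of miR-188-5p and miR-21a-5p are shown as seeds with few matches in these coding sequences. The mature sequences are RefSeq entries (GRCm38.p6), the capitals mark bases 2 to 8, and miR-181a-5p to miR-181d-5p share 1 seed.
miR-181a-5p: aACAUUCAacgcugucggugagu
miR-181b-5p: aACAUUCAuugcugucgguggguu
miR-181c-5p: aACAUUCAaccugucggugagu
miR-181d-5p: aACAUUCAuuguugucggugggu
miR-23a-3p: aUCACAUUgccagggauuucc
miR-199a-5p: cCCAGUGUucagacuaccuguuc
miR-188-5p: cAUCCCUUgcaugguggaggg
miR-21a-5p: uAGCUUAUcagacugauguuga
The seeds with the most matches in the finger regions that are not among these belong to the following miRNAs.
miR-6896-3p: uUUCUCUCucucaccuacaaac
miR-6377: uCAUUUGUcuucgugucugcauc
miR-188-3p: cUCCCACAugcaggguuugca
miR-8103: uCUCCUGUucucuguucuccc

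The DNA of the coding strand that matches the miR-181 seed is TGAATGT. In members with at least 2 fingers the stretch from the first to the last finger, called the finger region here, held 617 matches in 124 genes. Of these, 319 (51.7%) started at base 6 of a finger, counted from the first base of its first cysteine codon, and 274 at base 81. In 613 matches the first base lay at the third position of a codon, so that the match then read through a glutamate codon (GAA) and a cysteine codon (TGT). The 593 matches at bases 6 and 81 end on a cysteine codon of a finger, and the remaining ones lie elsewhere, among them the Zfp655 site at base 1176 of its coding sequence. Members that held any match had a median of 4. The match to the miR-23a-3p seed, AATGTGA, overlaps it, and 215 of the miR-181 matches were overlapped by one that began 2 bases later.

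The sites below show the match in capitals within 30 bases of coding strand (GRCm38). The first is the 1 site under a peak in all libraries, the next 3 are those under a peak in 2 libraries, and the last is 1 of the 14 matches in Zfp930.
Zfp655, chr5:145244498-145244527, plus strand: tatgaatatgaTGAATGTgggctggcctat
Zfp655, chr5:145244639-145244668, plus strand: gagaaactgcaTGAATGTaatgagtgtggg
Zfp937, chr2:150238433-150238462, plus strand: gagaaatcctaTGAATGTaaccagtgtgat
Zfp954, chr7:7115587-7115616, minus strand: tttgagtgtagTGAATGTggcaaatcgtac
Zfp930, chr8:69228369-69228398, plus strand: gagaaaccctaTGAATGTaatgaatgtggt
Zfp937 falls outside the rule for named genes and was named after its values were seen. In the Zfp930 site a second copy of the same letters starts 9 bases after the first and is left in lower case. Such pairs occurred 11 times, in 7 members.

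The libraries held 711377, 498071 and 829936 peaks, which the authors deposited as intervals with a score of 60 for nearly all, so the reads behind a peak are unknown. A peak was given to the region in which its midpoint fell on the strand of the gene, and a gene was called when it had such a peak in all 3 libraries. Of the cell type markers, 11 of 13 neuronal and neuroblastoma genes had an exonic peak in all libraries, against 1 of 6 myeloid genes, Ptprc, and 0 of 5 hepatocyte genes. Of all protein-coding genes 32.3% met that rule, and of the members 102 (38.8%) did. No RNA level of these cells was used here, so a gene with many peaks may be abundant or much bound, which cannot be told apart.

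The question was whether Ago2 peaks in these genes lie in the coding sequence, where the fingers are encoded, or in the 3′UTR. Of the 263 members, 54 (20.5%) had a coding sequence peak in all libraries, beside 18.7% of all protein-coding genes. Of the 245 with a 3′UTR, 60 (24.5%) met the same rule there, beside 21.1% of all genes. Both shares were near those of all genes. With peaks of 86 to 200 nt alone, 37 members (14.1%) met the coding rule, beside 12.1% of all genes, and 36 (14.7%) the 3′UTR rule, beside 15.5%. With the strand of each peak reversed, 1.45% of all genes met the coding rule and 1.88% the 3′UTR rule, and 2 and 3 members did. Without replicate 1, which had the fewest peaks in these genes, 89 members (33.8%) met the coding rule, beside 31.2% of all genes, and 92 (37.6%) the 3′UTR rule, beside 33.6%.

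The members stood further from all genes where fewer libraries were asked for. A coding peak in at least 2 libraries was found in 127 members (48.3%), beside 37.3% of all genes, and in at least 1 library in 194 (73.8%), beside 58%. In the 3′UTR the counts were 111 (45.3%) in at least 2 libraries, beside 38.1%, and 179 (73.1%) in at least 1, beside 55.8%. No peak in either region was found in 42 members (16%), beside 31% of all genes. Members were longer than all genes, with a median of 1698 against 1176 nt of coding sequence and 1162 against 797 nt of 3′UTR. Lengths and transcript levels of these genes were not matched, and no test was made.

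By length, members had fewer peaks in the coding sequence than in the 3′UTR in each library. The coding sequence held 0.433, 0.903 and 0.714 peaks per kb in replicates 1, 2 and 3, and the 3′UTR 0.492, 1.67 and 1.19. Replicate 1 was lowest in both. The ratio of coding to 3′UTR density was 0.674 ± 0.18 (SD, n = 3). In all other genes it was 0.612 ± 0.0719, and the ratio of members to others was 1.35, 1.02 and 0.917 in the 3 libraries, on both sides of 1, a difference within the spread between libraries (exact sign-flip permutation test, two-sided, p = 0.75; 3 libraries cannot give less than 0.25).

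Against all other genes the coding density of members had no common direction, and the 3′UTR density was lower in each library. The coding density of members over that of all other genes was 1.17, 0.922 and 0.594 (mean 0.894 ± 0.287, n = 3, exact sign-flip permutation test, p = 0.75). It was above 1 in replicate 1 and below 1 in the others. In the 3′UTR the ratio was 0.864, 0.901 and 0.647 (0.804 ± 0.137, n = 3, exact p = 0.25), below 1 in all 3 libraries, which is the smallest p the design allows.

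**Figure D1:**
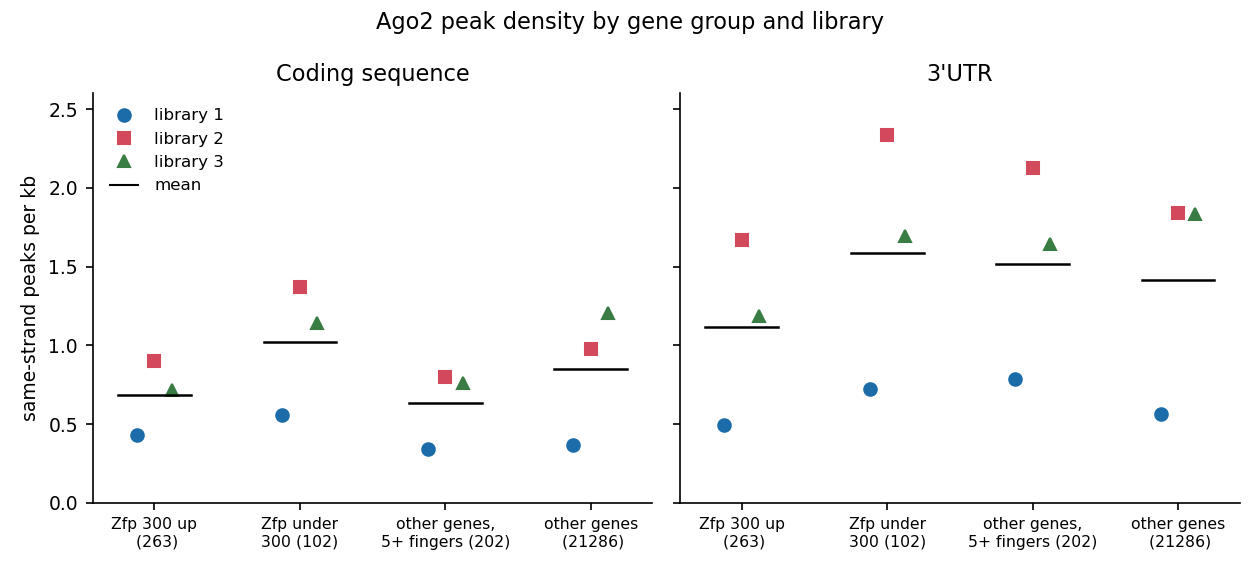
Same-strand peaks per kb (vertical axis) of coding sequence (left) and 3′UTR (right) in 4 groups of genes, with the number of genes, with or without a 3′UTR, in brackets. Points are libraries and bars their means; the Zfp genes numbered 300 up had means of 0.683 and 1.12, below those of the Zfp genes numbered under 300 (1.02 and 1.59) in each library.

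Members were also set against other zinc finger genes. The 102 Zfp genes numbered under 300 had denser peaks in each library. Members reached 0.774, 0.66 and 0.625 of their coding density and 0.679, 0.713 and 0.699 of their 3′UTR density (0.697 ± 0.0169, n = 3, exact p = 0.25). The 202 other genes with at least 5 fingers gave a coding ratio of 1.27, 1.13 and 0.939 (members over those genes, 1.11 ± 0.166, n = 3, exact p = 0.5), with libraries on both sides of 1. Their 3′UTR density was higher in each library, with members at 0.71 ± 0.0793 of it (n = 3, exact p = 0.25). The coding to 3′UTR ratio of members was 2.03, 1.44 and 1.30 times theirs (1.59 ± 0.387, exact p = 0.25, n = 3). Against the Zfp genes numbered under 300 the same ratio was 1.14, 0.925 and 0.894 (0.986 ± 0.134, exact p = 1, n = 3), on both sides of 1.

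The balance between the regions moved with the number of fingers. Of the 20 members with 0 or 1 finger and a 3′UTR, 10 (50%) had a peak there in all libraries. It was 22 of 90 (24.4%) with 2 to 9 fingers and 28 of 135 (20.7%) with 10 or more, beside 21.1% of all genes. The coding shares were 4 of 21 (19%), 22 of 97 (22.7%) and 28 of 145 (19.3%), beside 18.7% of all genes. All of these but the first were near the share of all genes. The coding to 3′UTR density ratio was 0.49 ± 0.152, 0.633 ± 0.16 and 0.765 ± 0.181 in these classes (n = 3), and rose from class to class in every library. The SDs overlap, the classes differ in more than fingers, and no test was made across them.

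Members with a KRAB pattern had fewer peaks than those without it in both regions. Their coding density was 0.866, 0.607 and 0.512 times that of the other members (0.662 ± 0.183, n = 3, exact p = 0.25) and their 3′UTR density 0.774, 0.442 and 0.491 times (0.569 ± 0.179, n = 3, exact p = 0.25). In the 3′UTR 22 of 133 KRAB members (16.5%) and 38 of 112 others (33.9%) were called, beside 21.1% of all genes. In the coding sequence 25 of 146 (17.1%) and 29 of 117 (24.8%) were, beside 18.7%, so the coding share of KRAB members was near that of all genes. Repeated sequence moved with this split. The share of a member's coding 30-mers that occur elsewhere in the genome had a median of 14.5% in KRAB members and 0% in the others, and its part in the difference was not tested.

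Repetition also went with the absence of peaks. The 69 members with no coding peak had a median of 26.9% repeated 30-mers, and 31 of them were over 50%. The 54 members called in the coding sequence had a median of 0.885%, and 3 were over 50%. Within the coding sequences of the called members, 3.78%, 1.64% and 2.9% of the 30-mers under peaks were repeated in replicates 1, 2 and 3, against 6.47%, 7.39% and 6.85% outside. Over all members it was 6.79%, 3.91% and 3.2% against 17%, 17.9% and 17.6%, where the outside share includes the members with no coding peak. How reads with several matching positions were treated is not given in the sources used here.

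The 8 members with most coding peaks had few repeats, with at most 3.71% of their coding 30-mers found elsewhere. Zfp462, a chromatin-associated protein with 33 fingers and a coding sequence of 7485 nt, had 7, 29 and 18 coding peaks and 3, 20 and 9 in its 3′UTR. Zfp638, an RNA and DNA binding nuclear protein, had 7, 13 and 23 coding peaks and none in the 26 nt of 3′UTR of its transcript. Zfp644, a partner of the histone methyltransferases G9a and GLP, had 7, 18 and 12 coding peaks, and Zfp800 had 7, 10 and 13. Replicate 1 was the lowest in each of these.

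Zfp654 had 6, 9 and 10 coding peaks, and Zfp407 had 6, 10 and 7. Zfp445, a KRAB protein that maintains genomic imprints, had 5, 5 and 6, the smallest spread of this set. Zfp655, which binds the signalling protein Vav, had 4, 7 and 8, or 19 in all, of which 11 remained with peaks of 86 to 200 nt alone. Per kb of coding sequence the order was another: Zfp800 had 5.04 ± 1.51 peaks per kb, Zfp655 3.9 ± 1.28, Zfp644 3.11 ± 1.39, Zfp654 2.5 ± 0.624, Zfp638 2.44 ± 1.37, Zfp462 2.4 ± 1.47, Zfp445 1.8 ± 0.195 and Zfp407 1.14 ± 0.309 (n = 3). Neighbours in that order lay within their SDs, except for Zfp445 and Zfp407. Zfp664, named after its values were seen, had the highest coding density among the called members, with 1, 10 and 5 coding peaks and 6.81 peaks per kb.

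The 6 members with most 3′UTR peaks all had 3′UTRs longer than the members' median of 1162 nt. They were chosen by number of peaks and not by density, which favours long 3′UTRs. Zfp871, a KRAB member, had 19, 62 and 53 peaks in 8856 nt of 3′UTR and 4, 6 and 4 in its coding sequence. Zfp652, a repressor that acts with Cbfa2t3, had 16, 51 and 26 in 8294 nt and 1, 1 and 2 coding peaks. Zfp367 had 7, 22 and 24 in 2296 nt, the densest of this set at 7.69 ± 4.05 peaks per kb (n = 3).

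Zfp704 had 5, 34 and 13 peaks in a 3′UTR of 11767 nt and none in its coding sequence in any library. Zfp507 had 5, 10 and 11, and Zfp945 had 6, 11 and 5. Over the 245 members with a 3′UTR, 23 (9.39%) had more 3′UTR than coding peaks in all libraries, beside 9.89% of other genes, and 15 (6.12%) had more coding peaks, beside 6.63%.

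**Figure D2:**
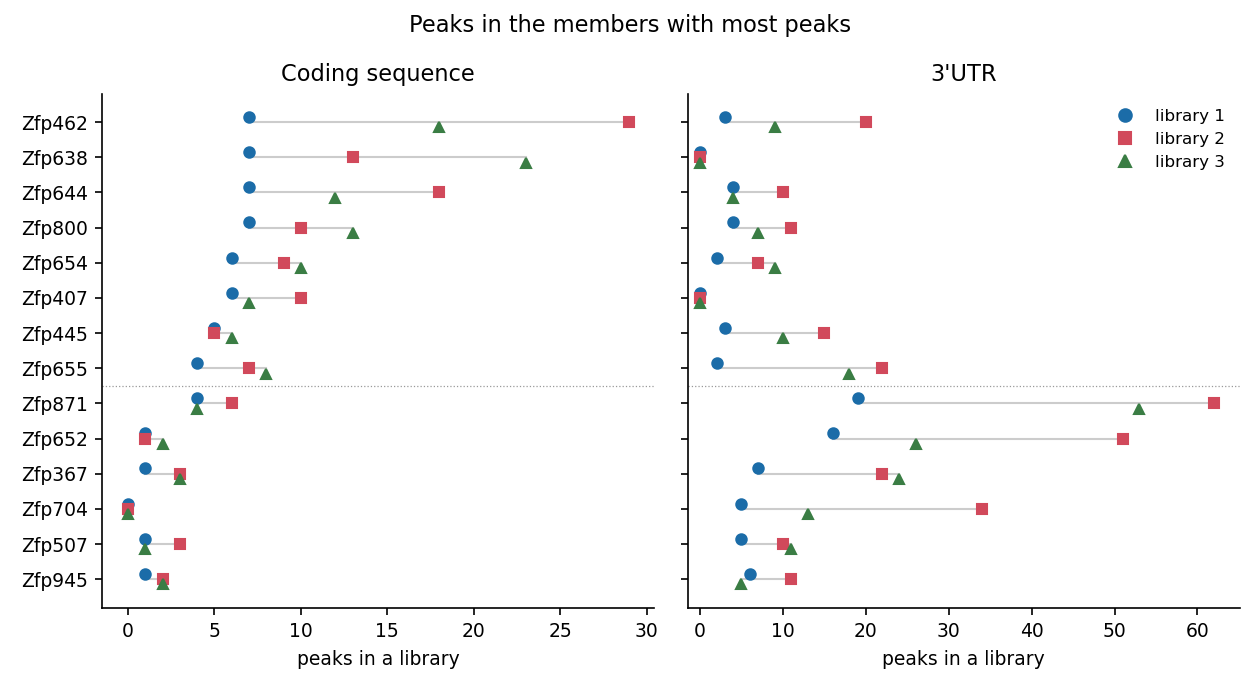
Peaks in each library (horizontal axis) in the coding sequence (left) and 3′UTR (right) of the 8 members with most coding peaks (above the dotted line) and the 6 with most 3′UTR peaks (below it). Grey lines join the lowest and highest library; Zfp871 reached 62 3′UTR peaks and Zfp462 29 coding peaks in replicate 2.

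Members with known roles were read whatever their values. Zfp598, a ubiquitin ligase that marks collided ribosomes, had 1, 5 and 9 coding peaks and 2 in its 3′UTR in each library. Zfp451, a SUMO ligase, had 4, 3 and 5 coding peaks and 1 in its 3′UTR in each library. Zfp609, a nuclear partner of Nipbl, had 2, 9 and 5 coding and 1, 18 and 15 3′UTR peaks. These 3 met both rules, as did Zfp326, which acts in splicing, with 2, 4 and 6 coding and 1, 9 and 6 3′UTR peaks. With the exons of all transcripts merged, the 3′UTR peaks of Zfp451 summed over the libraries were 61 in place of 3.

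Of the remaining members of that list, Zfp445 and Zfp462 are described above, Zfp568 was called in the 3′UTR only and the rest were called in neither region. Zfp423, a partner of Ebf factors with 27 fingers, had 0, 8 and 3 coding peaks, and Zfp521, its close relative, had 2, 0 and 1. Zfp335 had 1, 1 and 0 coding peaks, and Zfp746, a substrate of parkin, had 0, 2 and 0. Zfp384 had no coding peak, and 44.9% of its coding 30-mers were repeated. Zfp568, which represses a placental Igf2 promoter, had 0, 2 and 0 coding and 1, 3 and 1 3′UTR peaks, the latter 31 in all with the exons of all transcripts merged. Zfp809, which silences retroviral DNA, had 2, 0 and 0 coding peaks, and both of its miR-181 matches lay under peaks of replicate 1. Zfp619, chosen for its 33 fingers, was called in the coding sequence with 1, 1 and 5 peaks but had 0, 1 and 1 in its 3′UTR, and with peaks of 86 to 200 nt alone it had 0 coding peaks in all and was not called. Among the called members, Zfp808 (76.9% repeated) had 2, 1 and 2 coding peaks, Zfp442 (61%) had 2, 1 and 1 and Zfp820 (56.1%) had 2, 1 and 1.

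Bases covered in all libraries were few. Taking peaks of at most 200 nt, 690 nt of the members' coding sequence (0.139%) and 2947 nt of their 3′UTRs (0.714%) were under a peak in all 3, beside 0.362% and 1.3% in other genes. Counting runs of at least 8 nt, 15 such stretches lay in the coding sequences of 10 members and 52 in the 3′UTRs of 24. Of the coding stretches 8 lay in finger regions, in 7 members. The longest was 93 nt in Zfp655 (chr5:145244477-145244569), where the peaks of replicates 1 and 3 began and ended at the same base. Zfp871 held 14 of the 3′UTR stretches, between bases 1138 and 8672 of its 3′UTR, and Zfp652 held 5.

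Within the coding sequence, peaks were somewhat denser in the finger region than outside it. That region includes the bases between fingers, which were not counted apart. In the 242 members with at least 2 fingers the finger region made up 58.9% of the coding sequence. It held 123, 290 and 207 peaks, or 0.451, 1.06 and 0.759 per kb, against 0.42, 0.667 and 0.599 per kb of the rest. The ratio was 1.07, 1.59 and 1.27, above 1 in each library (1.31 ± 0.263, n = 3, exact sign-flip permutation test, p = 0.25, the smallest possible). It was 1.63 ± 0.454 with 2 to 9 fingers and 1.26 ± 0.196 with 10 or more (n = 3).

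The opposite strand gave a like ratio from few peaks. There 24, 21 and 27 peaks lay in the finger region and the ratio was 0.931, 1.33 and 1.45 (1.24 ± 0.272, n = 3, exact p = 0.5). In the Zfp genes numbered under 300 the same-strand ratio was 0.924 ± 0.126, and in the other genes with at least 5 fingers 0.988 ± 0.141. The difference between the members and these genes was not tested.

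**Figure D3:**
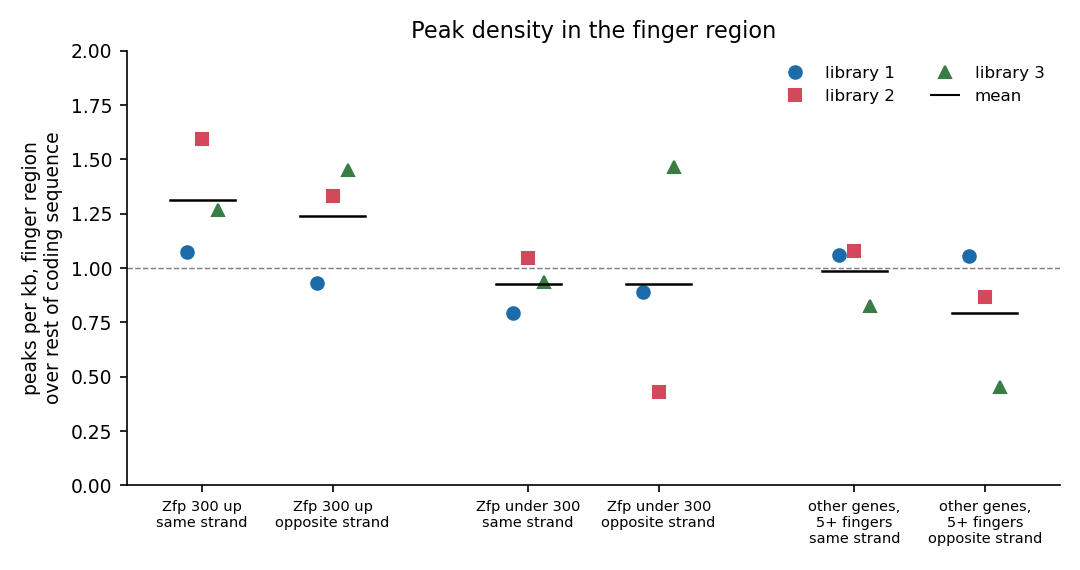
Peaks per kb of finger region over peaks per kb of the rest of the coding sequence (vertical axis) for same-strand and opposite-strand peaks, in 3 sets of zinc finger genes. Points are libraries, bars are means and the dashed line is an equal density; the members had 1.31 on the same strand and 1.24 on the opposite one.

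No place within the finger was favoured in all libraries. The 1916 fingers that start 84 nt before the next one were split into 4 windows of 21 nt. The window with most midpoints was number 3 in replicate 1 (0.447 per kb), number 4 in replicate 2 (0.944) and number 1 in replicate 3 (0.721), and window 4 was lowest in replicate 3 (0.273). The members' coding peaks had median widths of 86, 95 and 94 nt, about the length of this unit, so a peak does not resolve a position within it.

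The miR-181 seed match was far denser in the finger regions than elsewhere. It occurred 2.26 times per kb there, against 0.101 per kb in the coding sequence of other genes, 0.383 per kb in the members' 3′UTRs and 0.142 per kb in other 3′UTRs. The matches in the members' 3′UTRs include some in finger-like sequence, described below. By density it ranked 3 of the 1398 distinct seeds in the table and 8 of the 16384 possible words of that length. Seeds of miR-6896-3p (835 matches, 3.06 per kb) and miR-6377 (631, 2.31 per kb) were above it, and miR-188-3p (465) and miR-8103 (432) followed. The match of miR-23a-3p occurred 384 times and that of miR-199a-5p 286 times, against 6 for miR-188-5p and 2 for miR-21a-5p. KRAB members held 551 of the 617 miR-181 matches, and 334 lay in members with over 50% repeated 30-mers.

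The question was then whether peaks within a finger region lie on the miR-181 matches. The matches wholly under a peak were compared with the number that each gene's own match density and covered bases would give. There were 18, 31 and 22 matches under peaks and 16.4, 30.9 and 22.6 expected, a ratio of 1.10, 1.00 and 0.972. The mean was 1.02 ± 0.0646 (n = 3, exact sign-flip permutation test, p = 0.75), with libraries on both sides of 1. With peaks trimmed by 30 nt on each side it was 0.617, 0.976 and 1.43. In the 151 members with at most 10% repeated 30-mers, which hold 124 matches, it was 1.96, 1.11 and 0.575. Both settings leave few matches, and their libraries also lie on both sides of 1. With peaks of 86 to 200 nt alone it was 1.07, 1.03 and 1.15 (1.08 ± 0.0615, n = 3, exact p = 0.25), and with matches to seed bases 2 to 7 it was 1.08, 1.01 and 1.03 (1.04 ± 0.0354, n = 3, exact p = 0.25). Under these settings it was above 1 in every library, at the smallest p the design allows, which is not a low one. Under the other settings, the main one included, the libraries lay on both sides of 1. These values do not establish an excess. Of the 617 matches 593 start at bases 6 and 81 of a finger, and coding peaks are about as long as the step between fingers. Where matches recur from finger to finger, a peak can cover a like number wherever it lies. The ratio can then be drawn toward 1, and the size of this effect was not tested.

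In 3′UTRs the ratio for the same seed was higher than in the finger regions, where the limit given above applies. In the members' 3′UTRs 7, 19 and 14 of 158 matches were covered, with ratios of 1.31, 1.45 and 1.40 (1.39 ± 0.0692, n = 3). The 9 listed miRNAs with at least 50 matches there had a median ratio of 1.31, with the highest at 1.49 for miR-27a-3p, so the value of miR-181a-5p lay within their range. In other genes the ratio was 1.2 ± 0.0224 in the 3′UTR and 1.16 ± 0.0516 in the coding sequence. The ratio of the finger regions was below that of the members' 3′UTRs in each library, by a mean log2 difference of -0.44 ± 0.15, and below the other coding sequence by -0.18 ± 0.05 (n = 3, exact p = 0.25 for both). Of the 158 matches 124 lay in KRAB members. Some of the 158 lie in sequence like that of the finger repeats. In Zfp600 matches start at bases 60, 144, 228, 312, 396 and 480 of the 3′UTR, evenly spaced as fingers are. A match in Zfp979 under peaks of replicates 1 and 3 has similar letters around it. How many of the 158 are of this kind was not counted. Their part in the difference between the regions was not tested.

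The other frequent seeds of the finger regions had ratios on either side of 1. For miR-23a-3p 14, 23 and 19 matches lay under peaks, a ratio of 1.06, 0.846 and 1.36 (1.09 ± 0.258), beside 1.31 ± 0.104 in the members' 3′UTRs. Of its 384 finger matches 9 were covered in at least 2 libraries and 1 in all 3, in Zfp664. For miR-199a-5p it was 0.519, 1.04 and 0.952 (0.836 ± 0.277). The seed of miR-6896-3p gave 1.13, 1.03 and 1.18 (1.11 ± 0.0773, n = 3). TGGAGAG, which matches miR-3473c and miR-7649-3p and occurred 420 times, gave 1.09, 1.02 and 1.36 (1.16 ± 0.178, n = 3). Both were above 1 in every library, and their difference from miR-181 was not tested. The seed of miR-6377 gave 0.904 ± 0.23, miR-188-3p 0.782 ± 0.276 and miR-8103 1.11 ± 0.327 (n = 3). Of the 35 listed miRNAs found in the table, 6 had at least 50 matches in finger regions, and their ratios ran from 0.823 for miR-128-3p to 1.09 for miR-138-5p. The 6 matches of miR-188-5p and 2 of miR-21a-5p there were too few to read, with under 1 expected under peaks in each library and 0 found.

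**Figure D4:**
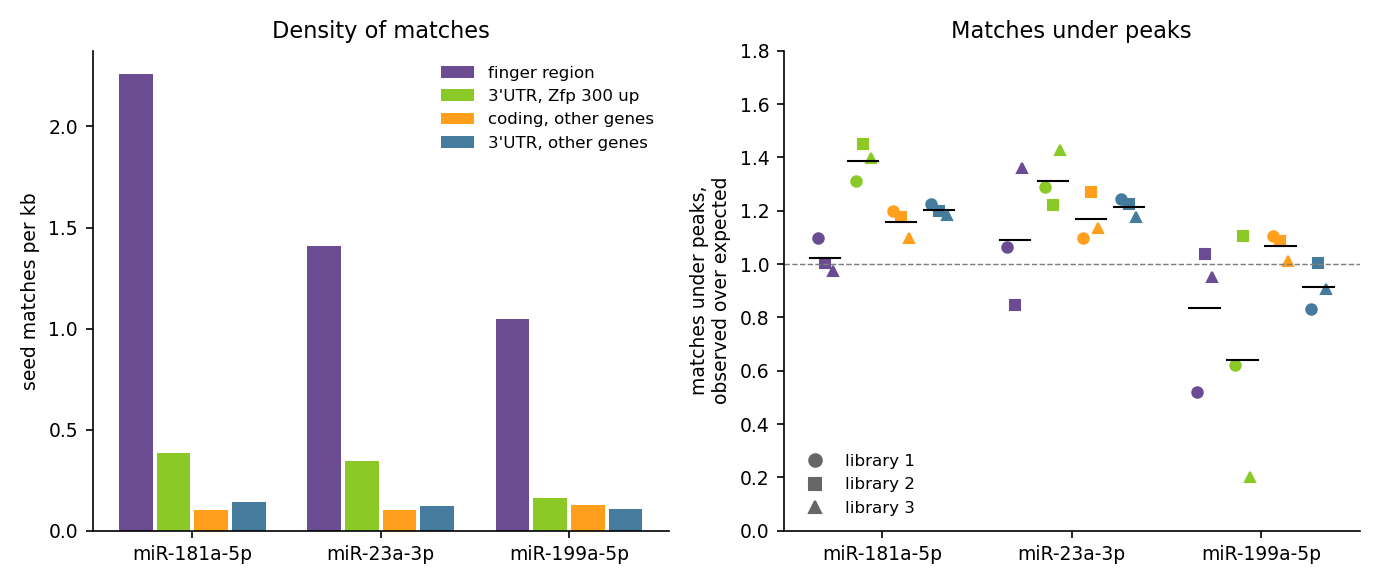
Seed matches per kb (left) and matches under peaks as observed over expected from each gene's own density (right) for 3 miRNAs in 4 kinds of region. Points are libraries, black bars are means and the dashed line is the expected number; for miR-181a-5p the finger regions had 2.26 matches per kb and a ratio of 1.02, and the members' 3′UTRs 0.383 and 1.39.

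Few single sites were covered in more than 1 library, as few bases of the finger regions were. Of the 617 miR-181 matches, 66 in 38 members lay under a peak in at least 1 library, 4 in at least 2 and 1 in all 3, where 0.287 were expected from the bases covered in all 3. For miR-23a-3p 1 was covered in all 3 and 0.701 were expected. These counts are too small to set apart from the expected ones. The miR-181 site, in Zfp655, starts at base 1176 of the coding sequence, between the fourth and the fifth finger, and the second Zfp655 site was covered in replicates 2 and 3. Zfp930 held 14 matches, of which 1, 2 and 5 were covered in the 3 libraries, and none of these 8 was the same site in any pair of libraries. Zfp958 had 0, 4 and 0 of 7 covered, Zfp667 0, 3 and 0 of 4, and Zfp954 0, 1 and 2 of 3.

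Many matches lay in members without peaks. Of the 617 matches 247 lay in members with no coding peak and 110 in members called in the coding sequence. The most in a member was 15, in Zfp534, Zfp989 and Zfp994, which were named after these values were seen. Zfp534 and Zfp989 had no coding peak, with 92.1% and 100% of their coding 30-mers repeated, and Zfp994 had 1 over all libraries, with 54.3% repeated.

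**Figure D5:**
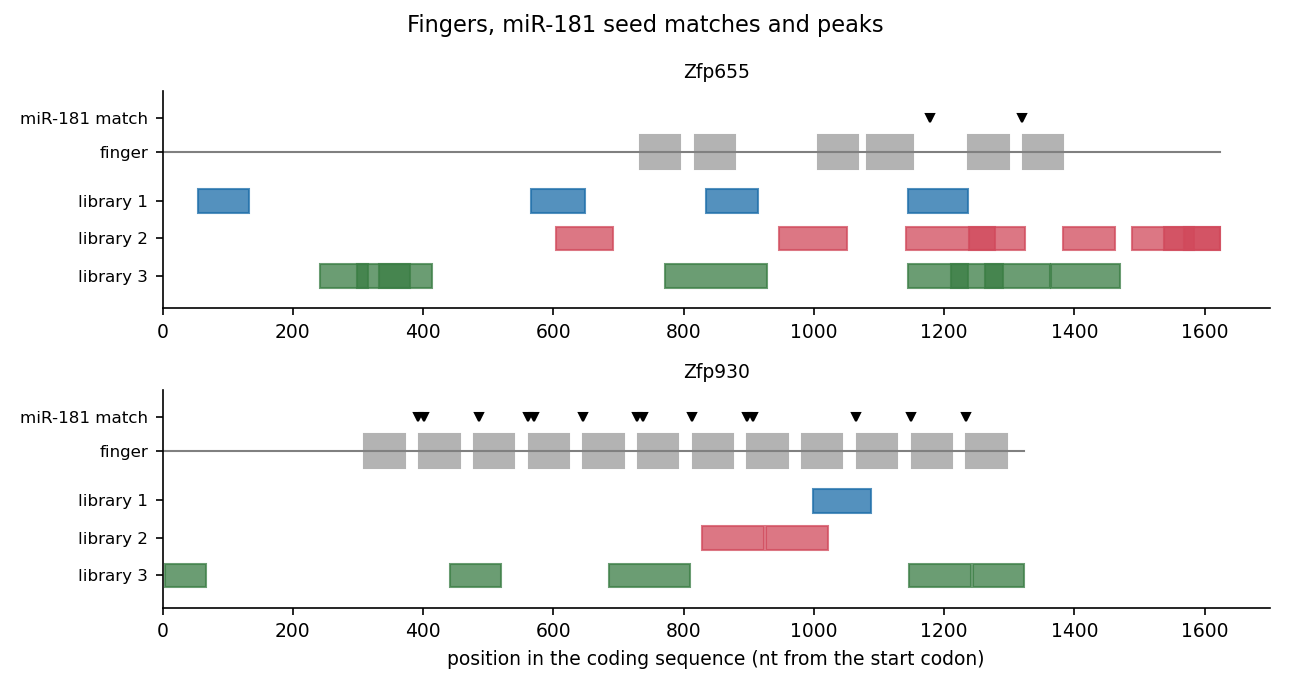
Coding sequences of Zfp655 (top) and Zfp930 (bottom) by position in nt from the start codon, with finger motifs (grey), miR-181 seed matches (triangles) and peaks of at most 200 nt in each library (coloured bars; darker where peaks overlap). The peaks of Zfp655 meet over the match at base 1176, and those of Zfp930 cover different matches in each library.

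In 3′UTRs 1 miR-181 match of the members was under a peak in all libraries, in Zfp871, where 0.584 were expected from the bases covered in all 3, and 10 were in at least 2. A miR-23a-3p match in Zfp367 was also covered in all libraries, where 0.535 were expected. Both are shown in 30 bases of the mRNA-sense strand with the match in capitals, to set them against the finger sites above.
Zfp871, chr17:32773178-32773207, minus strand: cttccagctttTGAATGTttaaaatgaaat
Zfp367, chr13:64133783-64133812, minus strand: tgagaagcgccAATGTGAagctgaagttgt

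Peaks over the hairpins of the miRNAs were counted as well. They come without reads, so they do not measure how much of a miRNA Ago2 carried. Mir23a had 1 peak in each library, Mir23b 1, 2 and 2, Mir188 2, 1 and 2 and Mir21a 2, 1 and 1. Of the 5 miR-181 hairpins read, Mir181d alone had a peak in all libraries, with 1, 1 and 2. Mir181a-1 had 0, 1 and 0, Mir181a-2 0, 1 and 1, Mir181b-1 none and Mir181b-2 0, 0 and 1. On the opposite strand Mir181a-1 and Mir181a-2 each had 0, 0 and 1. Mir181c was not read. The share of all miRNA hairpins with a peak in all libraries was not counted, so these counts have no background beside them. Neither Mir199a hairpin had a peak on its strand.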

How the data were processed

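Peaks of Ago2 HITS-clip from 3 N2A samples were read as deposited. Per the labels the authors used FastQC, cutadapt and STAR with the mm10 build, and the peak caller and its threshold are not given in the sources used here. The deposited score was 60 for 98.9% to 99.6% of peaks in each library and was used only as a threshold. Starts were counted from 0, and peaks with a midpoint in the coding sequence or 3′UTR were counted on the gene's strand (GENCODE M21, 1 transcript a gene with the longest coding sequence) on 21 chromosomes. Finger motifs were found in the translated sequence, and coding 30-mers were searched in both strands of GRCm38.p6. Fold ratios were formed within each library, and log2 ratios entered the exact sign-flip permutation test. Reads per peak are unknown, so no counting error is given. Coverage used peaks of at most 200 nt. The functions were tested on simulated data (Python 3.11.15, NumPy 2.4.6, pandas 2.3.3). The members and lists were chosen with earlier results of these data known. Named members were the 8 with most coding and the 6 with most 3′UTR peaks by their lowest library, the 5 with most miR-181 matches under peaks, the 3 with most fingers, the 3 most repeated among those called, and 13 members with known roles. Of 36 listed miRNAs 35 were in the miRNA table. Alternatives were other overlap rules, peak widths, scores, transcripts and single replicates left out.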

Additional observations from a re-analysis of the deposited data

How the results depend on the processing

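Of 55 values of the 6 main results under other settings, 46 kept their direction and lay within 1 SD, or within 1.5 times for counts. A rule of at least 2 libraries gave 127 members (48.3%) with a coding peak, beside 37.3% of all genes. It gave 111 (45.3%) with a 3′UTR peak, beside 38.1%. Peaks of 86 to 200 nt alone gave 36 (14.7%) with a 3′UTR peak, beside 15.5%. The first rule asks for less and the second uses fewer peaks. Leaving out 1 replicate gave 66 to 89 members with a coding peak, 67 to 92 with a 3′UTR peak, a coding to 3′UTR ratio of 0.572 to 0.741, a finger region ratio of 1.17 to 1.43, a coding density against other genes of 0.758 to 1.04 and a miR-181a-5p ratio of 0.987 to 1.05. The last 2 crossed 1 without replicate 3 and without replicate 1; the cause was not tested. With members of at most 10% repeated 30-mers alone, a setting chosen after seeing the data, the coding density against other genes was 1.03 and the miR-181a-5p ratio 1.22; the cause was not tested. Of 303 values for named members, 274 lay within 1.5 times. With peaks of 86 to 200 nt alone the coding peaks of Zfp871 summed over the libraries were 9 in place of 14, those of Zfp652 1 in place of 4, and the 3′UTR peaks of Zfp598 3 in place of 6. No paired analysis was possible because there is 1 group alone and so no samples to pair between groups; the ratios compare sets of genes or regions within the same library. Peaks come without read numbers, so depth could not be weighed, and 9 members share exons with another gene on the same strand; without them 52 had a coding peak.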

Other observations

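Genes whose products act with KRAB proteins were read as a list. Of 12 corepressor genes, 8 were called in the coding sequence and 6 in the 3′UTR, beside 18.7% and 21.1% of all protein-coding genes. Trim28, the scaffold that the KRAB domain binds, had 2, 9 and 8 coding peaks and 0, 1 and 3 in its 3′UTR. Setdb1, the H3K9 methyltransferase it recruits, had 3, 6 and 7 coding peaks, and its cofactor Atf7ip had 5, 12 and 6. Cbx5, an HP1 protein, had 36, 74 and 76 peaks in a 3′UTR of 8097 nt, while Cbx3, another HP1 protein, had none in either region. These genes are few and their transcript levels were not used here, and no test was made.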
